A study of Sus scrofa with 6 samples.

Results

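The tryptophan and kynurenine pathway was followed here in livers of pigs after extended partial hepatectomy (ePHx), with and without infused mesenchymal stromal cells (MSC). The enzymes were picked from the pathway by symbol, 8 in all, and 3 of them could be matched to a transcript cluster, the array's unit for a gene or a part of one. These were tryptophan 2,3-dioxygenase, which the annotation writes as TDO, the indoleamine 2,3-dioxygenase IDO1 and the dioxygenase HAAO. No cluster was matched by symbol, gene ID or transcript to AFMID, KMO, KYNU, ACMSD or QPRT, and these 5 enzymes were not analysed here. The 3 clusters stand among 25385 that were tested and 10247 genes that could be named. The rule picked among several clusters of a gene by the mean signal of all 6 arrays, but each of the 3 enzymes had 1 cluster. The pathway was singled out because TDO was already known to be high in the MSC-treated livers of these same arrays. The values of TDO are therefore a description and carry no p-value.

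MSC-treated pigs (n = 3 arrays) had ePHx and received porcine bone marrow MSC, which by the methods had been turned towards hepatocyte-like cells in culture. Control pigs (n = 3 arrays) had ePHx and received the vehicle, Ringer solution by the methods. Both groups were adult male German landrace pigs, and all livers had been resected, so no array here shows an unoperated liver. The arrays were Affymetrix Porcine Gene 1.0 ST, each from another animal by the methods, and their values are RMA signals on the log2 scale. Whole tissue was measured, so fewer cells of a type and less RNA per cell cannot be told apart.

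The liver takes up most dietary tryptophan and breaks it down along the kynurenine route. TDO, a haem enzyme of hepatocytes, opens the indole ring in the first step, and IDO1 carries out the same reaction, mainly in immune and other cells exposed to interferon gamma. AFMID then yields kynurenine, KMO hydroxylates it, KYNU cleaves the side chain, and HAAO opens the ring of 3-hydroxyanthranilate. From there ACMSD leads the carbon to glutarate, while QPRT turns quinolinate into the precursor of NAD. TDO is a classical target of glucocorticoids in rat liver.

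The entry step of the liver, TDO, had higher signals in all MSC-treated livers than in any control livers. TDO (transcript cluster 15322926, chromosome 8, 32 probes) had log2 signals of 9.40, 8.74 and 10.48 in MSC-treated livers 1, 2 and 3, against 8.30, 7.92 and 8.45 in control livers 1, 2 and 3. The groups did not overlap, MSC-treated liver 3 stood highest and MSC-treated liver 2 lay nearest to the controls. The means were 9.54 ± 0.88 in MSC-treated and 8.23 ± 0.27 in control livers (SD, n = 3 each), a difference of 1.32 on the log2 scale, or 2.49-fold (95% interval of the log2 difference 0.40 to 2.23). The interval comes from the values that led to the choice of TDO and is no test of a difference. Among the 25385 clusters TDO was number 12 by the size of the difference towards MSC. The spread within the MSC-treated group was wider than in the control group. The transcript record behind the cluster is a partial coding sequence, by its annotation.

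HAAO, which makes the direct precursor of quinolinate, differed in the same direction by a smaller amount. HAAO (transcript cluster 15271772, chromosome 3, 29 probes) had log2 signals of 7.59, 7.44 and 8.19 in MSC-treated livers 1, 2 and 3, against 7.46, 7.20 and 6.998 in control livers 1, 2 and 3. The groups overlapped, because MSC-treated liver 2 lay just under control liver 1, and MSC-treated liver 3 again stood highest. The means were 7.74 ± 0.40 in MSC-treated and 7.22 ± 0.23 in control livers (SD, n = 3 each), a log2 difference of 0.52 (95% interval 0.020 to 1.03) or 1.44-fold. With limma the adjusted p over all clusters was 0.751. An exact permutation test of the 2 groups, two-sided, gave p = 0.2 for HAAO, where 3 arrays against 3 cannot go below 0.1.

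IDO1, the inducible enzyme for the same first step, was dim and showed no difference larger than the spread between arrays. IDO1 (transcript cluster 15248074, chromosome 17, 31 probes) had log2 signals of 4.72, 5.10 and 5.01 in MSC-treated livers 1, 2 and 3, against 4.75, 5.14 and 5.26 in control livers 1, 2 and 3. The groups overlapped, and array 1 was the lowest of its group in both. The means were 4.94 ± 0.20 in MSC-treated and 5.05 ± 0.27 in control livers (SD, n = 3 each), a log2 difference of -0.11 (95% interval -0.51 to 0.29). The limma adjusted p was 0.892 and the exact permutation p, two-sided, was 0.5. The interval holds both a modest fall and a small rise, so equal levels were not shown.

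**Figure D1:**
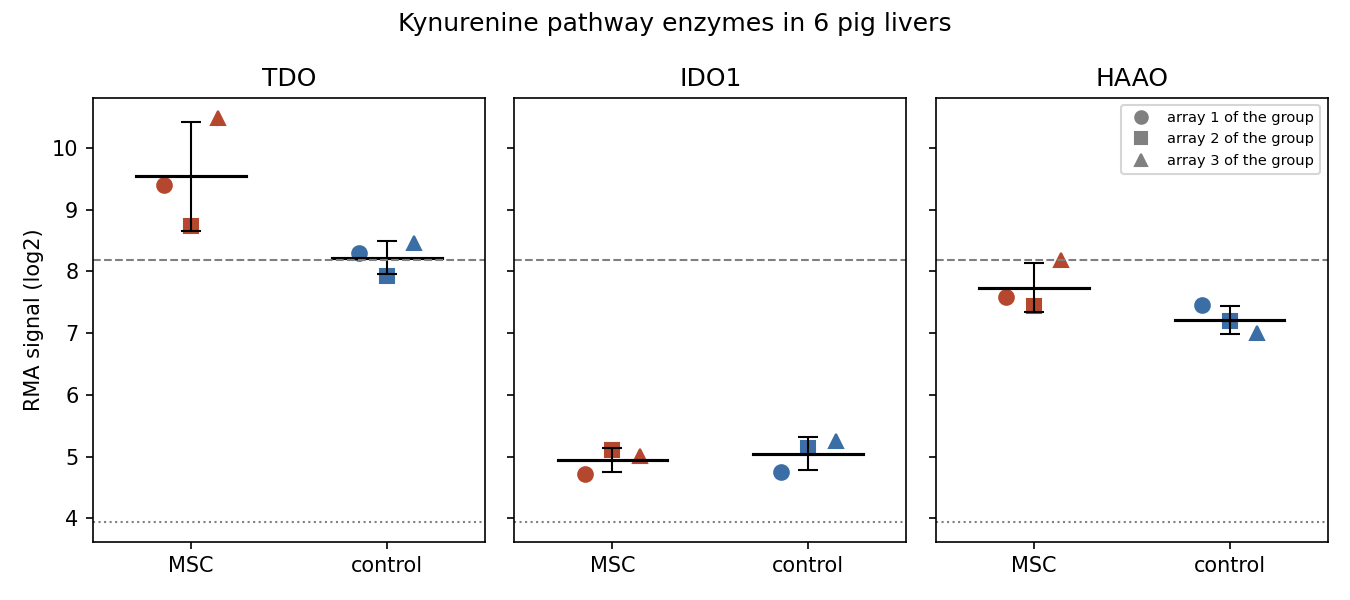
Log2 RMA signal of TDO, IDO1 and HAAO (y axis) in 3 MSC-treated and 3 control livers (x axis), with 1 point per array, the group mean as a horizontal line and ± 1 SD as a bar. The dotted and dashed grey lines mark the median and the 95th percentile of the antigenomic probe sets (3.95 and 8.18); the TDO groups do not overlap, whereas those of IDO1 and HAAO do.

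The 3 clusters also differed in how far they stood above the background of the array. The antigenomic probe sets, 23 in number, match no pig sequence and measure unspecific binding, and their mean signals had a median of 3.95 and a 95th percentile of 8.18. TDO was the one member whose mean over the 6 arrays, 8.88, exceeded that upper level, and its control mean was close to it. HAAO averaged 7.48 and IDO1 4.997, both between the median and the upper end of the antigenomic signals. A real difference can be understated at such levels, and no call of presence was made for single clusters. By level, TDO stood at percentile 86.9 of the tested clusters, HAAO at 66.4 and IDO1 at 23.3. This order is one of probe signals and is no order of transcript amounts, since probes of different genes bind with different strength. All 3 clusters are annotated as free of cross-hybridizing probes.

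Following the study, a gene is said here to rise or fall where the unadjusted limma p is under 0.05 and the absolute log2 difference is at least 0.5. HAAO passed this threshold and IDO1 did not. TDO is not called here, because its high values led to the pathway; counted with it, 2 of 3 enzymes lay past the threshold, against 2.73% of all tested clusters (692 clusters, 314 or 1.24% higher and 378 or 1.49% lower), and nothing is read from that count. The 692 became 2215 without control liver 1, 1240 without MSC-treated liver 2 and 445 without control liver 2. After Benjamini-Hochberg adjustment limma called 0 of 25385 clusters (lowest adjusted p = 0.176), while 1662 had an unadjusted p under 0.05 and 32 passed the other threshold of the methods, which asks for more than 2-fold. Non-overlapping groups, as seen for TDO, occurred in 11.6% of all clusters, with MSC above control in 5.64%.

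HAAO lay near the threshold, and its call was lost without MSC-treated liver 1 (0.60), MSC-treated liver 3 (0.30), control liver 2 (0.51) or control liver 3 (0.41). It passed without MSC-treated liver 2 (0.67) or control liver 1 (0.64). With the replicate number as a block the difference was again 0.52 and the call was lost. As a description, the log2 difference of TDO was 0.85 without MSC-treated liver 3 and 1.72 without MSC-treated liver 2. The sign of IDO1 depended on single arrays, with -0.26 without control liver 1 and 0.0059 without MSC-treated liver 1.

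**Figure D2:**
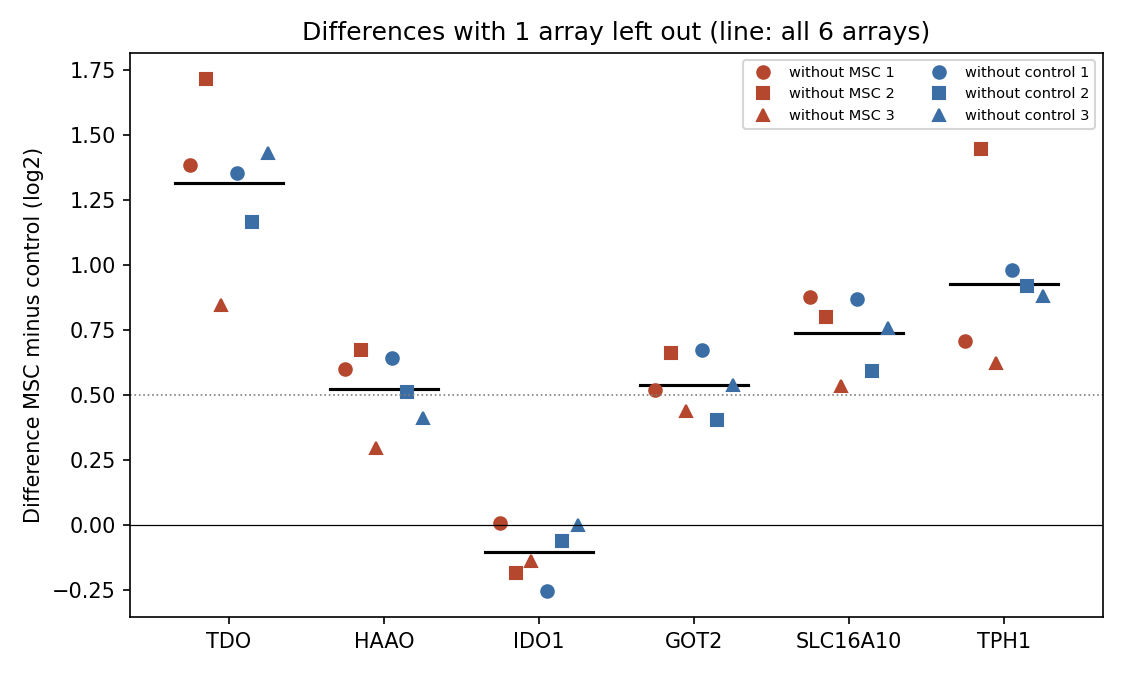
Log2 difference, MSC minus control (y axis), of 6 genes of tryptophan metabolism (x axis) with each of the 6 arrays left out in turn (points) and with all arrays (black line); the dotted line marks 0.5. For TDO the values run between 0.85 and 1.72, for HAAO between 0.30 and 0.67 and for IDO1 on both sides of 0.

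Side by side over the 6 arrays, TDO and HAAO had their highest value in the same liver and differed in which liver was lowest. MSC-treated liver 3 was highest for both, control liver 2 was lowest for TDO and control liver 3 was lowest for HAAO. Pearson's r between TDO and HAAO was 0.89, between TDO and IDO1 -0.24 and between HAAO and IDO1 -0.42, as descriptions over 6 arrays that include the difference between the groups. The genes whose signals ran most like those of TDO, among 2881 named genes with a mean above 8.18, were JUP (r = 0.988), CDKN2AIPNL (r = 0.986), IVD (r = 0.984), KLKB1 (r = 0.977) and MBNL3 (r = 0.975). JUP is the junction protein plakoglobin, IVD a mitochondrial enzyme of leucine breakdown and KLKB1 the plasma prekallikrein made by hepatocytes. In all, 89 of the 2881 genes had an r above 0.9 with TDO and 24 an r below -0.9.

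The arrays were set against markers of the cells a liver sample holds, since TDO belongs to hepatocytes and IDO1 to other cells. The 8 measured hepatocyte markers, with ALB, APOB and SERPINA1 among them, had an array mean between 12.27 and 12.47 in MSC-treated and between 11.97 and 12.46 in control livers. ALB, the defining one, averaged 13.57 ± 0.06 in MSC-treated and 13.50 ± 0.04 in control livers (n = 3 each), and all 8 had a mean above the upper antigenomic level. HNF4A, a transcription factor of hepatocytes, rose by 0.70, which it did not without MSC-treated liver 3 (0.61) or control liver 2 (0.46), and the other 7 did not pass. Values relative to the array's mean over these markers were an alternative added after seeing the data. TDO then differed by 1.13 on the log2 scale (95% interval 0.38 to 1.88, which is again no test). HAAO differed by 0.34 (95% interval -0.19 to 0.87) and did not pass. Apart from HNF4A, the markers averaged from 11.85 (CYP2E1) to 13.53 (ALB), at percentiles 99.36 to 99.96 of the tested clusters by level. Whether their mean follows the share of hepatocytes was not tested.

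Lists for other cells were lower or mixed. The 8 macrophage markers had array means from 9.24 to 9.32 in MSC-treated and from 8.75 to 9.36 in control livers. For the 8 T and NK cell markers they ran from 6.22 to 6.42 in MSC-treated and from 5.89 to 6.63 in control livers, and for the 3 dendritic cell markers from 4.92 to 5.35 in MSC-treated and from 4.77 to 5.47 in control livers. No marker of these 3 lists passed the threshold. Differences of the macrophage markers were positive for 6 and negative for 2, from -0.28 (MARCO) to 0.48 (CD14), the latter just under the limit of 0.5. All 7 endothelial and all 8 stellate and fibroblast markers had negative differences, with VWF (-0.71), FLT1 (-0.53) and RGS5 (-0.67) past the threshold. The bile duct and neutrophil lists were negative throughout too, with CFTR (-0.94), EPCAM (-0.77) and S100A8 (-0.80) past it. No marker of the bile duct, neutrophil, T and NK cell or dendritic cell lists had a mean above the upper antigenomic level. VWF, RGS5 and CFTR passed without each array in turn, whereas FLT1 (-0.67 to -0.45), EPCAM (-1.03 to -0.54) and S100A8 (-1.11 to -0.45) each passed without 2 of the 6 arrays only: MSC-treated liver 2 and control liver 1 for FLT1 and EPCAM, and MSC-treated liver 2 and control liver 3 for S100A8. The array means of the endothelial list were 8.31 to 8.64 in MSC-treated and 8.24 to 9.16 in control livers, and those of the stellate and fibroblast list 9.43 to 9.79 in MSC-treated and 9.42 to 10.44 in control livers. The bile duct list had 7.13 to 7.73 in MSC-treated and 7.61 to 8.31 in control livers, and the neutrophil list 5.58 to 6.60 in MSC-treated and 6.64 to 6.90 in control livers. Control liver 1 had the highest hepatocyte mean of its group and the lowest mean of its group in all 7 other lists, nearly level with control liver 3 for neutrophils. The part of these differences in the values of TDO and HAAO was not tested, and the values relative to hepatocyte markers do not test it.

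**Figure D3:**
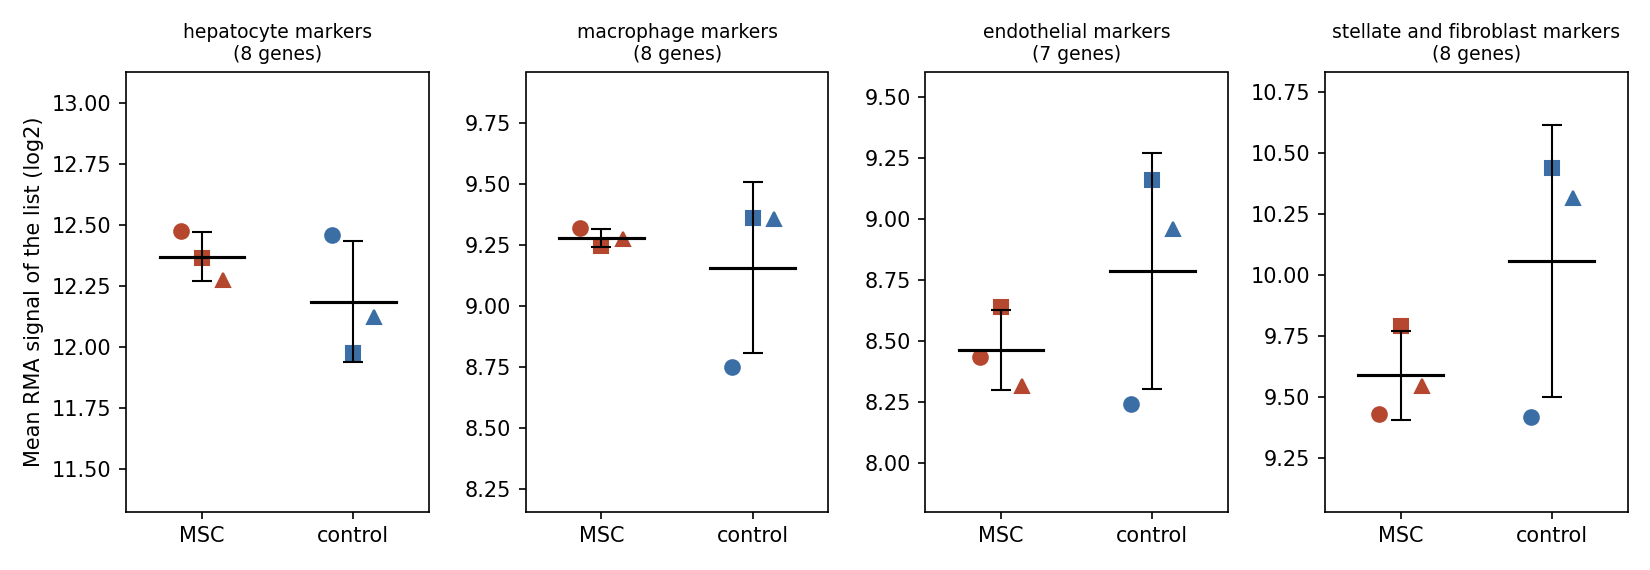
Mean log2 RMA signal of 4 marker lists (y axes, each spanning the same log2 range) on 3 MSC-treated and 3 control arrays (x axis), with group means as lines and ± 1 SD as bars; circles, squares and triangles stand for arrays 1, 2 and 3. Control liver 1 (circle) lies apart from the other controls in all 4 panels.

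Beyond the 3 enzymes, 8 lists of connected genes were read off the same fit, with 44 of their 73 genes measured. Together 3 genes rose and 0 fell, 6.82%, with a median log2 difference of 0.23 over the 44 against 0.00012 over all named genes, of which 2.62% passed. They were GOT2, SLC16A10 and TPH1, each from a different list, and by limma none had an adjusted p under 0.05. Over the 6 arrays GOT2 averaged 11.24, above the upper antigenomic level of 8.18. SLC16A10 (7.07) and TPH1 (5.68) lay between the antigenomic median and that level. The count of 3 became 8 without MSC-treated liver 2, 7 without control liver 1 and 1 without MSC-treated liver 3. Groups did not overlap for 6.82% of the 44 genes, each with MSC higher. Over all clusters this share was 11.6%, and 5.64% with MSC higher. The lists were chosen with earlier results of these arrays known, and nothing is read from these shares or the median.

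GOT2 belongs to the transaminases, which divert kynurenine to kynurenic acid, and is better known as the mitochondrial aspartate aminotransferase. GOT2 had log2 signals of 11.55, 11.27 and 11.72 in MSC-treated livers 1, 2 and 3, against 11.24, 10.70 and 10.98 in control livers 1, 2 and 3. The groups did not overlap, though MSC-treated liver 2 and control liver 1 were nearly level. The log2 difference was 0.54 (95% interval 0.12 to 0.95, limma adjusted p = 0.736), and the call was lost without control liver 2 (0.40), MSC-treated liver 1 (0.52) or MSC-treated liver 3 (0.44). Of the other 3 measured transaminases none passed. KYAT1 differed by 0.25 and KYAT3 by 0.25, and AADAT, whose signals were near the antigenomic median, by -0.25.

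SLC16A10, a transporter that lets aromatic amino acids cross the membrane, was higher in all MSC-treated livers. SLC16A10 had log2 signals of 7.16, 7.32 and 7.85 in MSC-treated livers 1, 2 and 3, against 6.96, 6.41 and 6.74 in control livers 1, 2 and 3. The groups did not overlap, and MSC-treated liver 3 was highest, as for TDO and HAAO. The log2 difference was 0.74 (95% interval 0.24 to 1.24, limma adjusted p = 0.736), and the gene passed without each array in turn, at 0.54 without MSC-treated liver 3 and 0.88 without MSC-treated liver 1. The other 3 measured transporters of the list did not pass, SLC1A5 at -0.36, SLC6A19 at -0.07 and SLC36A4 at -0.02.

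TPH1, which starts the route to serotonin instead, differed through a pair of arrays. TPH1 had log2 signals of 6.58, 5.10 and 6.74 in MSC-treated livers 1, 2 and 3, against 5.32, 5.20 and 5.12 in control livers 1, 2 and 3. MSC-treated liver 2 lay below every control liver, and the other two MSC-treated livers lay above them. The log2 difference was 0.93 (95% interval 0.02 to 1.83, limma adjusted p = 0.757), and it passed without MSC-treated liver 2 (1.45) but not without any other array. TPH2, INMT, MAOA and IL4I1 of the same list did not pass, with differences between -0.27 and 0.35.

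**Figure D4:**
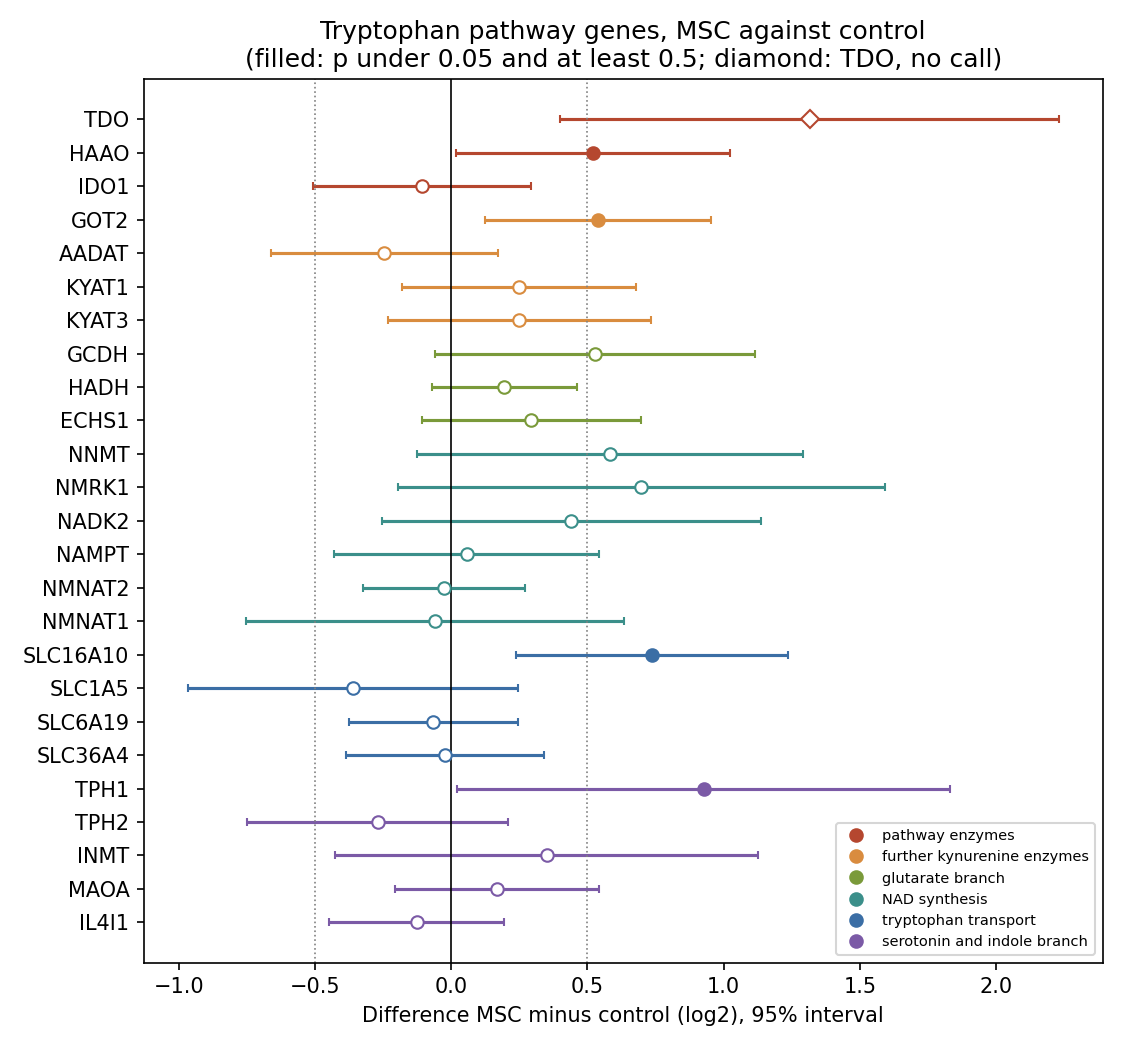
Log2 difference, MSC minus control (x axis), with its 95% interval for the 3 pathway enzymes and 22 connected genes (y axis), coloured by list; filled points passed an unadjusted p under 0.05 with a difference of at least 0.5 (dotted lines). HAAO, GOT2, SLC16A10 and TPH1 are filled, all to the right of 0, and TDO is drawn as a diamond, as a description without a call. The interval of TDO comes from the values that led to its choice and is no test.

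No gene of the glutarate branch or of NAD synthesis passed. On the glutarate branch all 3 measured genes were positive, with GCDH, the glutaryl-CoA dehydrogenase, at 0.53 (95% interval -0.06 to 1.11), ECHS1 at 0.29 and HADH, whose groups did not overlap, at 0.19. GCDH had log2 signals of 8.65, 8.54 and 8.68 in MSC-treated livers 1, 2 and 3, against 8.71, 7.62 and 7.96 in control livers 1, 2 and 3, so that control liver 1 was the highest of all. The GCDH cluster is not annotated as free of cross-hybridizing probes, and neither are those of TPH2 and CYP1A1. In NAD synthesis 4 of 6 differences were positive. NMNAT1 and NMNAT2, which form the dinucleotide from the product of QPRT, were at -0.06 and -0.03. Outside the route from quinolinate, NMRK1, the nicotinamide riboside kinase, had the largest difference of the list, 0.70 (95% interval -0.20 to 1.59), with log2 signals of 7.95, 7.38 and 8.09 in MSC-treated livers 1, 2 and 3, against 8.05, 6.66 and 6.61 in control livers 1, 2 and 3. Control liver 1 lay among the MSC-treated livers there too. NNMT, which methylates nicotinamide, differed by 0.58, NAMPT, which salvages it, by 0.06 and the NAD kinase NADK2 by 0.44.

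Genes known to act on the pathway, or to be acted on by its products, were called in neither direction. For glucocorticoid responses, 6 of 10 genes were measured, with the receptor NR3C1 at 0.23, the hepatic tyrosine aminotransferase TAT at 0.53 (95% interval -0.25 to 1.32) and PCK1 at -0.95 (95% interval -2.65 to 0.75), the largest of the list. For interferon gamma, which induces IDO1, 8 of 10 measured genes were positive with a median of 0.24. CXCL10 had the largest difference, 0.83 (95% interval -0.33 to 1.99; 0.19 without MSC-treated liver 3), with 7.09, 6.60 and 8.76 in MSC-treated livers 1, 2 and 3, against 6.34, 7.05 and 6.58 in control livers 1, 2 and 3. The array mean of the interferon list was highest in MSC-treated liver 3 (8.11), where IDO1 was at 5.01. IFNG itself had mean signals of 3.27 in MSC-treated and 3.13 in control livers, below the antigenomic median. For the aryl hydrocarbon receptor, a sensor of kynurenine, 5 of 6 measured genes were positive, with NQO1 at 0.49 (95% interval -0.44 to 1.43), CYP1A1 at 0.29 and AHR itself at 0.18.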

How the data were processed

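Total RNA of 6 pig livers was hybridized to 1 array each. The authors prepared biotinylated cDNA and summarized the probes with RMA in Affymetrix Expression Console 1.4, and the deposited values are log2 signals, used without further normalization. For the cluster positions the sources name no genome build, so only chromosomes are printed. A deposited workbook gave the annotation and the other columns, such as the number of probes, and its 6 signal columns match no label and were not used. Symbols were completed from current gene tables, and for KYAT1 and KYAT3 from older names by hand.

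MSC was compared with control over 25385 clusters with limma 3.58.1 in R 4.3.3 (4 residual and 3.80 prior degrees of freedom), as MSC minus control, with Benjamini-Hochberg adjustment over all clusters. The calculation was checked on simulated data. The pathway, the lists and the rule for naming genes (all members; up to 4 called genes of a list by p, otherwise the largest difference; the 5 genes most like TDO) were chosen with earlier results of these arrays known. Other members of the lists are named outside this rule, after their values were seen. P-values of limma reflect how far single arrays of a group lie apart, with the variance of each cluster drawn towards that of all clusters. The number of arrays limits the precision.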

Additional observations from a re-analysis of the deposited data

How the results depend on the processing

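Under the t-test of the methods with its 2-fold limit, and under adjustment over all clusters, TDO did not pass. That is a description and no test, since the values of TDO led to the pathway. These settings leave the difference of TDO at 1.32 by construction. As a description, the difference of TDO ran from 0.85 to 1.72 with 1 array left out. HAAO lost its call at 0.52 with the replicate block, under the t-test and under adjustment, at 0.495 with repeated quantile normalization and at 0.34 relative to hepatocyte markers, and ran from 0.30 to 0.67 with 1 array left out. IDO1 ran from -0.26 to 0.0059 with 1 array left out and was reversed at 0.0059. The count of 2 enzymes, TDO included, was 1 with the replicate block, with repeated quantile normalization and among clusters above 8.18 only, where HAAO and IDO1 were not tested, and 0 under the t-test and under adjustment. It ran from 1 to 2 with 1 array left out, and nothing is read from this count here either. The count of 692 clusters was 188 above 8.18 only, 266 with 1 cluster per gene, 1565 with array weights, 32 under the t-test and 0 under adjustment, and with 1 array left out it ran from 445 (control liver 2) to 2215 (control liver 1), with 1240 without MSC-treated liver 2. The block called 834. The count of 3 connected genes was 9 with array weights and ran from 1 (without MSC-treated liver 3) to 8 (without MSC-treated liver 2), with 7 without control liver 1. For these changes the cause was not tested. The replicate numbers were not shown to pair the animals: same-numbered arrays had residual correlations of -0.016, 0.25 and -0.085, and 2 of 6 arrays correlated best with their own number. The mean of several clusters was not run, since each enzyme had 1 cluster.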
